A study of Mus musculus with 12 samples.

Results

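This report describes 42 endothelial identity genes in primary mouse brain endothelial cells (BECs). They were taken by gene symbol from a given list of endothelial transcription factors, surface and matrix glycoproteins, Ly6 proteins, receptors and junctional or signalling proteins, with no measured value in the rule. All 42 were found, of 32419 genes with a read in any library. The BECs came from Cort+/+ mice or from cortistatin-deficient Cort-/- mice (C57BL/6 strain), each biological replicate being pooled from 3 mice, 8 weeks old where the methods give an age (Cort+/+), and were enriched by 60 h of puromycin. They were kept for 24 h under normoxia and normoglycaemia (NX/NG, 21% O2 and 5.5 mM glucose) or for 4 h without glucose at 1% O2 and then 20 h of reoxygenation (OGD-R). The labels list 3 replicates of each genotype in each environment, and the values of 3 Cort+/+ and 2 Cort-/- replicates in each were analysed here. The labels name a stroke model (MCAO) as disease state, whereas the libraries were made from cells cultured as above.

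Endothelial identity is set by a small network of transcription factors. ETS factors such as Erg and Fli1 bind most endothelial enhancers, SOXF factors (Sox7, Sox17, Sox18) act in arterial and vessel specification, Tal1, Lyl1 and Gata2 are shared with the haematopoietic lineage, and Nr2f2 (COUP-TFII) and Prox1 specify venous and lymphatic fate. In brain vessels Foxf2 and Foxq1 belong to the programme of the blood-brain barrier, and the glycoproteins Cd34, Emcn (endomucin), Podxl and Cd93 coat the luminal surface or the cell border.

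The deposited values are RPKM (reads scaled to gene length and library size), 1 table for each environment, and each table was scaled on its own. Every library held between 12386048 and 12390428 reads on genes. Under OGD-R, 1 library of each genotype was low in ribosomal RNA (Rn18s-rs5): it was 0.0775% of the reads of Cort+/+ replicate 1 and 0.0951% of those of Cort-/- replicate 3, against 7.64% to 15.8% elsewhere. For the deleted gene Cort, no library had more than 2 reads, and all 4 Cort-/- libraries had 0, too few to check the labels by it. Each p-value measures the spread between these pooled replicates.

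Promoters of the endothelial genes were read from RefSeq (GRCm38.p6), which held an entry for 28 of the 42 genes, with 39 start sites. Each window is the 250 bases upstream of an annotated start, and the data do not show which start was used. The 5 shown belong to the genes that led the comparison of the genotypes (Nr2f2 and Stab1) and to those that differed at an unadjusted p under 0.05 and hold a searched motif (Emcn, Erg and Tal1). Capitals mark matches on either strand to a short motif. For SOX factors the letters were AACAAT, with ACAATG as the second spelling searched. For Gata factors the letters searched were AGATAA.
Nr2f2, chr7:70366747-70366996, minus strand: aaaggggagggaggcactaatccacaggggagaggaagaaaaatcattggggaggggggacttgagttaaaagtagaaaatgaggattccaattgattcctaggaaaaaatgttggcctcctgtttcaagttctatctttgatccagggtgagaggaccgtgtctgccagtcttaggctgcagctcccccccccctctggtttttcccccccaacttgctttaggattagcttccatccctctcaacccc
Stab1, chr14:31168642-31168891, minus strand: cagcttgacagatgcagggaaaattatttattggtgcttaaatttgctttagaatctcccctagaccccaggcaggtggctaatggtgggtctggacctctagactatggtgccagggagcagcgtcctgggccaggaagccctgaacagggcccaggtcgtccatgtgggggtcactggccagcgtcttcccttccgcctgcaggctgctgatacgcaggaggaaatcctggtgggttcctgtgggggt
Emcn, chr3:137340828-137341077, plus strand: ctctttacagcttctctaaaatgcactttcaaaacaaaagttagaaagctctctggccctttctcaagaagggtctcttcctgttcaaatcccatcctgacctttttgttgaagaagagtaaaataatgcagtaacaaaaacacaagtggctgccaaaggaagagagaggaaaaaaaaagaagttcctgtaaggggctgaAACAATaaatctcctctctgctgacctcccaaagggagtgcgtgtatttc
Erg, chr16:95459349-95459598, minus strand: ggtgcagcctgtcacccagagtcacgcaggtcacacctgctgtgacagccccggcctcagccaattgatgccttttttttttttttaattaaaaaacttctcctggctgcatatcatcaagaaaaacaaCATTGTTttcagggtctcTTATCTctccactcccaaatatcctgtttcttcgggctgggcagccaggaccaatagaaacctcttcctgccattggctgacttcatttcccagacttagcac
Tal1, chr4:115056176-115056425, plus strand: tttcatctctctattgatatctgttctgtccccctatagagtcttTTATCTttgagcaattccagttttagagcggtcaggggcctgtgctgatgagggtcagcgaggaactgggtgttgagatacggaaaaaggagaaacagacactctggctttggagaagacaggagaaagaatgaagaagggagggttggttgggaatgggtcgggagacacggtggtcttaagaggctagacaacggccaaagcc
The windows of Nr2f2 and Stab1 held no searched motif. In the Erg window both SOX motifs matched on the reverse strand and overlap each other, and the Gata motif matched further downstream.

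On either strand, AACAAT or ACAATG was in 12.8% of the 39 windows and in 16.2% of the 32851 windows of all genes in the table. AGATAA was in 7.69% of the windows of the endothelial genes (Erg, Myct1 and Tal1) and in 9.99% of all. Of the ETS letters, CCGGAAGT was in 0 of the 39 windows and in 2.88% of all, and ACAGGAAGT was in 1 of the 39 (Egfl7, 2.56%) and in 0.794% of all. The forkhead letters TGTTTAC were in 0 of the 39 windows and in 3.17% of all. AACAAT by itself was in 12.8% of the 39 windows and in 9.42% of all. The shares thus lay on either side of those of all windows, depending on the letters, and no test was made.

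The endothelial genes spanned a wide range of levels. Over the 10 libraries, 6 genes averaged at least 100 RPKM, namely Cd93 (281 RPKM), the adhesion receptor Adgrl4 (209 RPKM), Mmrn2 and Emcn (149 RPKM each), Adgrf5 (125 RPKM) and Ly6a (120 RPKM). A further 16 lay between 10 and 100 RPKM, 16 between 1 and 10 RPKM, and 37 of the 42 had at least 1 RPKM in every library. The highest transcription factors were Erg (85.9 RPKM), Bcl6b (63.8 RPKM) and Sox18 (62.3 RPKM), at percentiles 98.6, 98.1 and 98.0 of all genes.

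At the other end, Mef2c averaged 0.768 RPKM and the apelin receptor Aplnr 0.193 RPKM. The lymphatic factor Prox1 had at most 8 reads in a library and 0.0403 RPKM on average. Mmrn1, a platelet and lymphatic endothelial multimerin, had at most 3 reads in any library, the floor used here, and no fold is given for it in the text. The barrier factors Foxf2 (8.26 to 11.6 RPKM) and Foxq1 (0.715 to 1.73 RPKM) were present, while the barrier factor Lef1, which is not among the 42, lay at 0.107 to 0.257 RPKM.

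**Figure D1:**
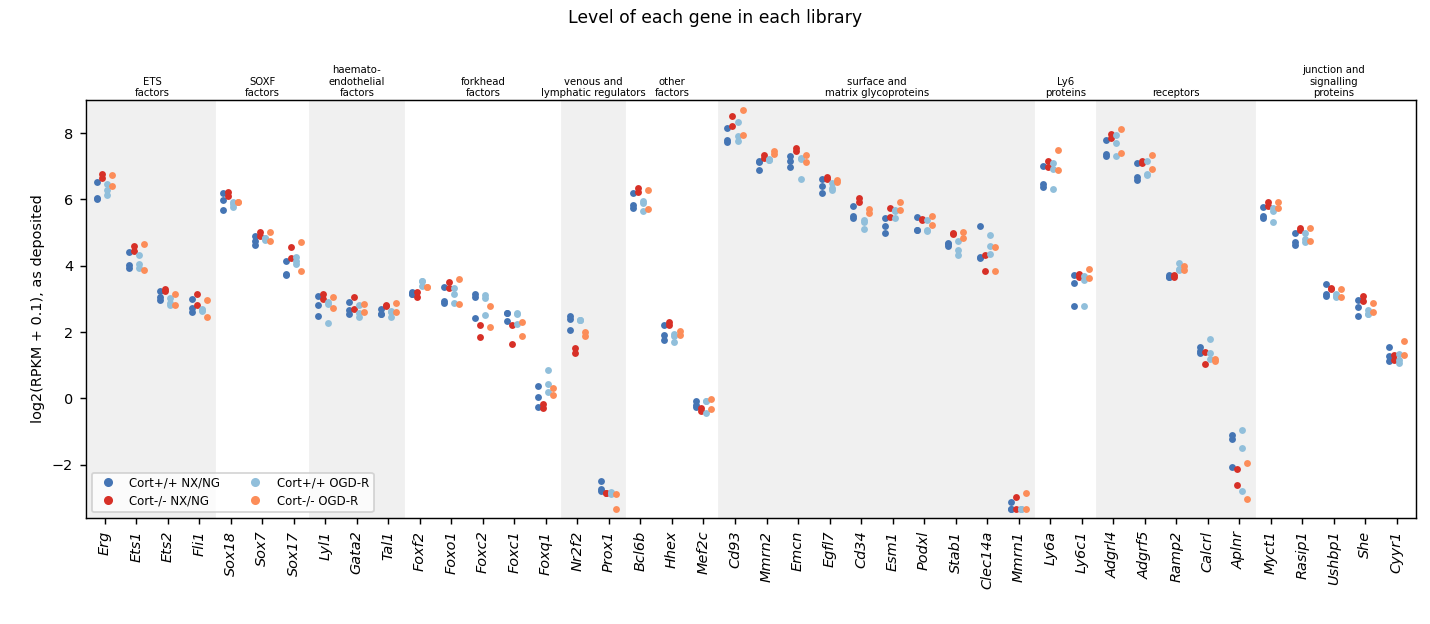
Level of each of the 42 genes in each of the 10 libraries, as log2(RPKM + 0.1) of the deposited values, 1 point a library, coloured by group and ordered by role and mean level; the 2 environments were scaled separately. Cd93 and Adgrl4 are at the top, and Mmrn1, Prox1 and Aplnr at the bottom in all 4 groups.

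The endothelial label was checked against other defining genes. VE-cadherin (Cdh5) lay at 443 to 740 RPKM, Pecam1 at 152 to 255 RPKM and Cldn5 at 105 to 136 RPKM in the 10 libraries, while the brain endothelial transporter Slco1a4 lay at 0.0859 to 0.496 RPKM. Of the 10 mural markers, the contractile genes Acta2 (630 to 1080 RPKM) and Tagln (358 to 684 RPKM) were among the most abundant. The pericyte genes Kcnj8 and Abcc9 were at 0.0353 RPKM or below, and Vtn lay at 0.0840 to 0.574 RPKM. Other pericyte genes were present, with Pdgfrb at 5.17 to 15.4 RPKM, Cspg4 at 0.679 to 5.15 RPKM and Rgs5 at 0.983 to 3.53 RPKM. Macrophage markers summed to between 1.32 and 2.06 RPKM and neural markers to between 0.646 and 1.39 RPKM. Fibroblast markers, led by Col1a1, differed between the groups and are given beside the results. In these bulk samples, fewer cells of a type and less RNA per cell cannot be told apart.

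Under NX/NG, 8 of the 42 endothelial identity genes were higher in Cort-/- than in Cort+/+ BECs at an unadjusted p under 0.05. At that threshold 3 (Nr2f2, Foxc1 and Foxc2) were lower, and none of the 42 differed at an adjusted one in limma. Log2 fold changes were 0.20 to 0.52 for the 8 and -0.86 to -0.57 for the 3. The median log2 fold change (Cort-/- over Cort+/+) was 0.23 over the 42 genes and -0.01 over all genes tested. It was above 0 for 31 of the 42, Mmrn1 at the floor included, and for 30 of the 37 that reached 1 RPKM in 2 or more libraries. None passed an adjusted p of 0.05 in limma, as no gene of the 29965 in the table did (0%). The 8 higher genes stand against 3.56% of all genes and 5.52% of those that reached 1 RPKM in 2 or more libraries, and the 3 lower ones against 4.82% and 7.84%. With limma-voom on the recovered reads, 19 of the 42 were higher and 4 lower at that threshold, beside 1546 and 1742 of all 29965 genes. It called 2 of the 42 (Nr2f2 and Stab1), of 124 genes called in all.

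**Figure D2:**
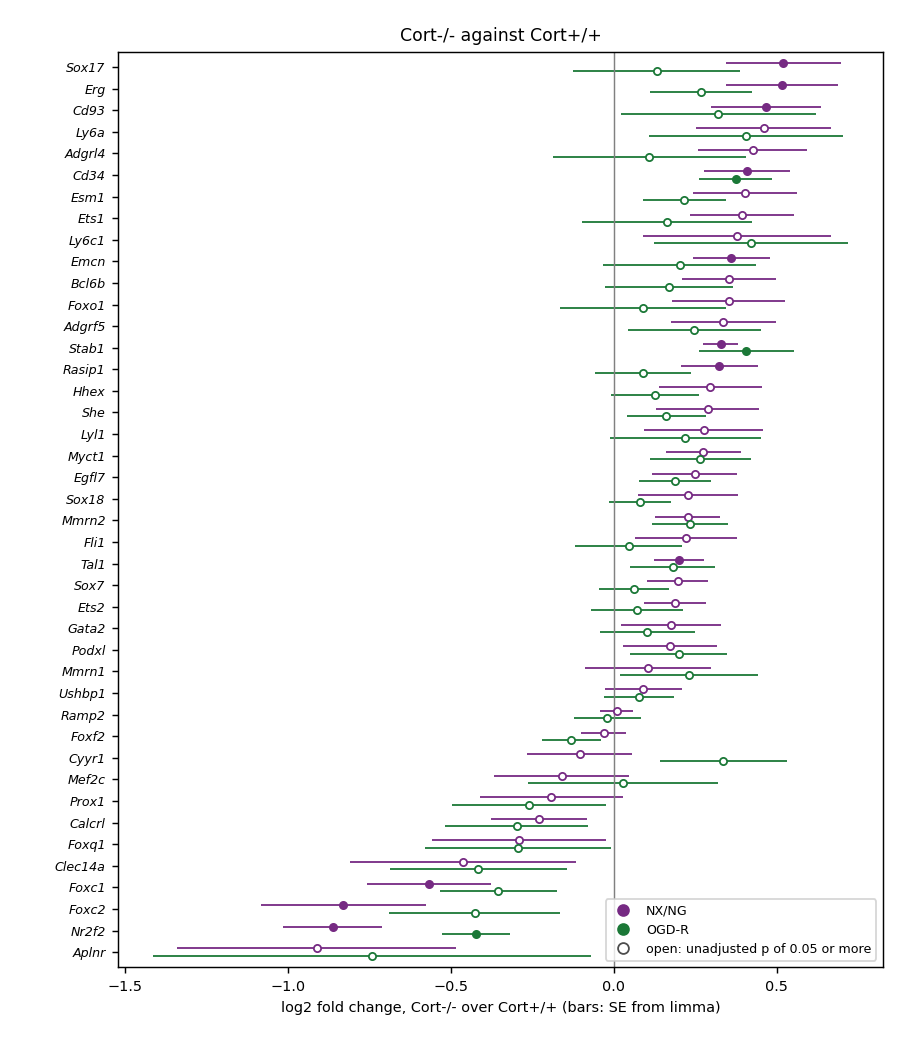
Log2 fold change of Cort-/- over Cort+/+ BECs for each of the 42 genes on the log2(RPKM + 0.1) scale, under NX/NG (purple, 3 against 2 libraries) and OGD-R (green, 3 against 2 libraries); bars are the standard error from limma, and filled points have an unadjusted p under 0.05. Under NX/NG 8 filled points lie above 0 and 3 (Nr2f2, Foxc2, Foxc1) below it, and under OGD-R Cd34 and Stab1 lie above 0 and Nr2f2 below it. The points of Mmrn1 rest on at most 3 reads a library.

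The venous regulator Nr2f2, a nuclear receptor that holds back Notch signalling in veins, had the lowest p of the transcription factors. Its level was 5.54, 5.14 and 4.10 RPKM in the Cort+/+ NX/NG replicates and 2.79 and 2.51 RPKM in the Cort-/- ones. The groups did not overlap, with every Cort-/- library below every Cort+/+ library. The means were 4.93 ± 0.743 RPKM (SD, n = 3) and 2.65 ± 0.198 RPKM (SD, n = 2), a log2 fold change of -0.86 (SE 0.15, limma adjusted p = 0.253). With limma-voom it was -0.89 (adjusted p = 0.0325, range over all alternatives 0.0325 to 0.560). Prox1, the other fate regulator of its class, had 4 to 8 reads in each NX/NG library and a log2 fold change of -0.19 (SE 0.22).

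The ETS factors were all higher in Cort-/- BECs in direction, with log2 fold changes from 0.19 to 0.51. Erg, needed for endothelial junctions and survival, was at 64.5, 66.2 and 91.6 RPKM in Cort+/+ and at 100.3 and 109 RPKM in Cort-/- libraries. Both Cort-/- libraries lay above all Cort+/+ ones, and the log2 fold change was 0.51 (SE 0.17, adjusted p = 0.531). Ets2 lay at 8.17, 7.70 and 9.33 RPKM in Cort+/+ against 9.37 and 9.72 RPKM in Cort-/- libraries, separated by a narrow gap between Cort+/+ replicate 3 and Cort-/- replicate 1.

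Among the SOXF factors, Sox17, which acts upstream of Notch in arteries, had 13.2, 13.4 and 17.7 RPKM in Cort+/+ and 18.5 and 23.8 RPKM in Cort-/- libraries. Its log2 fold change was 0.52 (SE 0.18, adjusted p = 0.535), the highest of the 42. Sox18, a factor of vessel and lymphatic development, was at 51.3, 62.4 and 72.5 RPKM and at 75.1 and 69.0 RPKM, so Cort+/+ replicate 3 lay among the Cort-/- libraries. Sox7 had a log2 fold change of 0.20 (SE 0.09) and its unadjusted p did not reach the threshold.

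The haemato-endothelial factors showed smaller differences. Tal1, a helix-loop-helix factor, lay at 5.76, 6.40 and 5.74 RPKM in Cort+/+ and at 6.97 and 6.74 RPKM in Cort-/- libraries, with a log2 fold change of 0.20 (SE 0.08, adjusted p = 0.589). Lyl1, its close relative, had 5.54, 8.35 and 6.95 RPKM against 8.80 and 7.86 RPKM, and the groups overlapped. Gata2 overlapped as well, with a log2 fold change of 0.18 (SE 0.15).

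Of the forkhead factors, 4 of 5 were lower in Cort-/- BECs in direction and Foxo1 was higher. Foxc2, which with Foxc1 acts in vessel and mural cell development, lay at 8.71, 8.15 and 5.28 RPKM in the Cort+/+ replicates and at 4.58 and 3.52 RPKM in the Cort-/- ones. Cort+/+ replicate 3 lay closer to the Cort-/- libraries than to the other Cort+/+ ones, and the groups did not overlap. Its log2 fold change was -0.83 (SE 0.25, adjusted p = 0.489) and that of Foxc1 was -0.57 (SE 0.19, adjusted p = 0.534), from 5.54 ± 0.532 to 3.77 ± 1.04 RPKM (SD, n = 3 and 2). Foxf2, the barrier factor, was at 9.18, 8.79 and 8.73 RPKM and at 9.18 and 8.26 RPKM, with overlap and a log2 fold change of -0.03 (SE 0.07).

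In cultures of brain vessels, Foxc1, Foxc2 and Nr2f2 are also made by fibroblasts and mural cells, and most listed markers of these cells moved with them. The summed level of the 10 fibroblast markers was 218 to 302 RPKM in Cort+/+ and 99.3 to 136 RPKM in Cort-/- NX/NG libraries. Of those 10, 5 were lower in Cort-/- at an unadjusted p under 0.05 and 0 were higher, with a median log2 fold change of -0.65. In direction 3 of the 10 were higher, namely Lum and Postn, near 0 in every library, and Pdgfra. Pdgfra averaged 0.335 RPKM in Cort+/+ and 0.596 RPKM in Cort-/- NX/NG libraries (log2 fold change 0.66, SE 0.29). The 10 mural markers summed to 1467 to 1798 RPKM and to 1310 to 1563 RPKM. Of these, Cspg4, Pdgfrb and Rgs5 were lower at that threshold, and 2 (Myh11 and Abcc9) were higher in direction. The part of the fibroblast and mural markers in the differences of the endothelial genes was not tested.

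Of the remaining factors, Bcl6b, a repressor enriched in endothelium, had 56.6, 53.6 and 72.4 RPKM in Cort+/+ and 73.9 and 80.5 RPKM in Cort-/- NX/NG libraries. The groups did not overlap, and the log2 fold change of 0.35 (SE 0.14) missed the unadjusted threshold. Hhex, a homeobox factor, lay at 3.26, 4.58 and 3.64 RPKM and at 4.53 and 4.81 RPKM, with Cort+/+ replicate 2 between the Cort-/- libraries. Mef2c stayed under 1 RPKM throughout.

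Among the 10 surface and matrix glycoproteins, 9 were higher in Cort-/- NX/NG BECs in direction, counting Mmrn1 at the floor. At an unadjusted p under 0.05, 4 were higher. Stab1 (stabilin-1), a scavenger receptor of sinusoidal and lymphatic endothelium and of macrophages, had the lowest p of the 42. It was at 23.8, 25.7 and 25.3 RPKM in Cort+/+ and at 31.8 and 30.8 RPKM in Cort-/- libraries, clearly apart. Its log2 fold change was 0.33 (SE 0.05, limma adjusted p = 0.238), and with limma-voom 0.33 (adjusted p = 0.0307, range over all alternatives 0.0307 to 0.538). The macrophage markers Ptprc and Itgam were near 0 in these libraries and Csf1r was at 1.14 to 1.71 RPKM. The whole list of 7 summed to 1.32 to 2.05 RPKM in Cort+/+ and to 1.84 to 1.93 RPKM in Cort-/- libraries. Of the 6 tested, 5 were higher in Cort-/- in direction and 0 at an unadjusted p under 0.05. The part of macrophages was not tested.

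Cd34, a sialomucin of endothelial and progenitor cells, was at 43.1, 44.97 and 56.1 RPKM in Cort+/+ and at 60.4 and 66.5 RPKM in Cort-/- NX/NG libraries. No Cort+/+ library reached the Cort-/- ones (log2 fold change 0.41, SE 0.13, adjusted p = 0.517). Cd93, a receptor for Mmrn2 in the vessel wall, was the highest of the 42, at 211, 220 and 283 RPKM and at 293 and 363 RPKM (log2 fold change 0.47, SE 0.17, adjusted p = 0.565). Emcn, which limits leukocyte adhesion, averaged 142 ± 17.3 RPKM (SD, n = 3) and 182 ± 9.98 RPKM (SD, n = 2), a log2 fold change of 0.36 (SE 0.12, adjusted p = 0.526). Clec14a was the exception in direction, with a log2 fold change of -0.46 (SE 0.35) and a high value in Cort+/+ replicate 2, at 36.4 RPKM.

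Both Ly6 genes were higher in direction, but neither passed the unadjusted threshold. Ly6a (Sca-1) lay at 87.7, 82.9 and 127 RPKM in Cort+/+ and at 126 and 143 RPKM in Cort-/- NX/NG libraries, with overlap at Cort+/+ replicate 3. Ly6 genes have near-identical relatives, so the split of reads between them is uncertain.

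No receptor gene passed the unadjusted threshold under NX/NG. Adgrl4, an orphan adhesion receptor that marks growing vessels, was at 159, 166 and 223 RPKM in Cort+/+ and at 232 and 253 RPKM in Cort-/- libraries, without overlap (log2 fold change 0.43, SE 0.17). Ramp2, the partner of Calcrl in the adrenomedullin receptor, showed almost no spread, at 12.7 ± 0.311 RPKM (SD, n = 3) and 12.8 ± 0.311 RPKM (SD, n = 2). Aplnr had 6 to 18 reads in the Cort+/+ and 3 and 6 reads in the Cort-/- libraries, and its log2 fold change of -0.91 (SE 0.43) rests on these.

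Of the junction and signalling genes, Rasip1, a Rap1 effector of the endothelial lumen, lay at 24.6, 26.3 and 31.7 RPKM in Cort+/+ and at 34.8 and 33.8 RPKM in Cort-/- NX/NG libraries. Its log2 fold change was 0.32 (SE 0.12, adjusted p = 0.565). Myct1, at 43.3, 54.6 and 45.5 RPKM against 55.3 and 59.9 RPKM, did not overlap between the genotypes either, though Cort+/+ replicate 2 came close to Cort-/- replicate 1. Ushbp1, Cyyr1 and She had log2 fold changes of 0.09, -0.11 and 0.29.

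**Figure D3:**
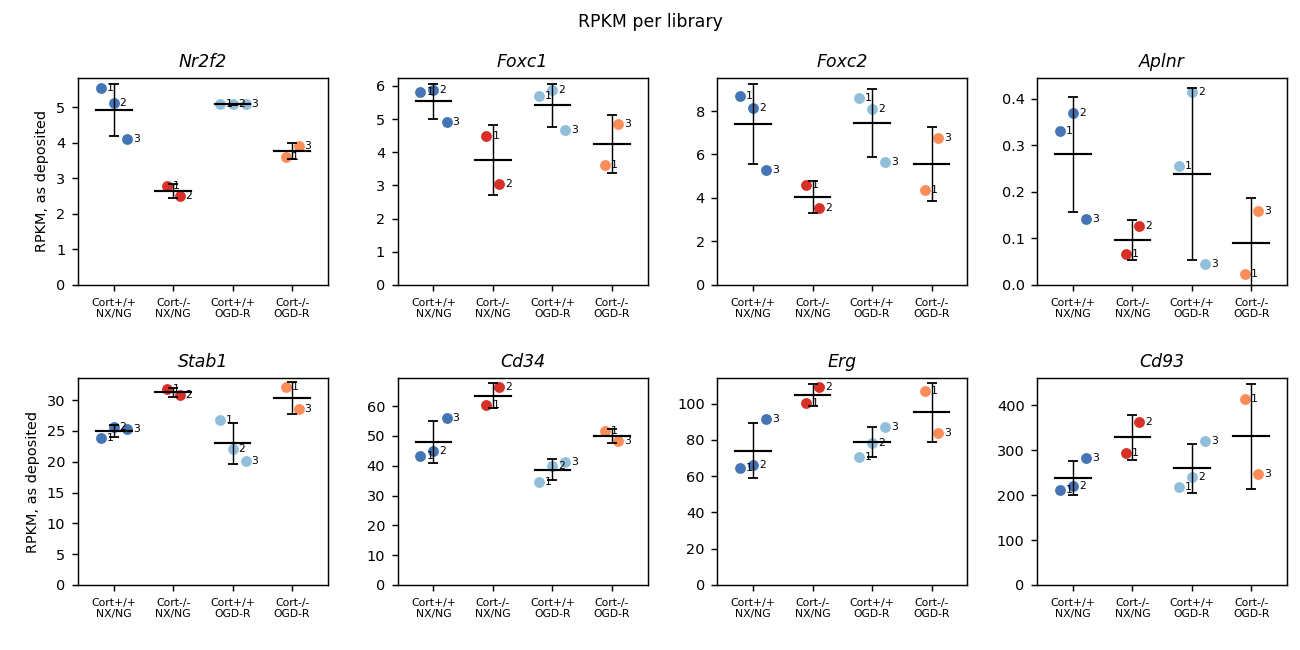
RPKM as deposited in each library for 4 genes that were lower (top: Nr2f2, Foxc1, Foxc2, Aplnr) and 4 that were higher (bottom: Stab1, Cd34, Erg, Cd93) in Cort-/- NX/NG BECs in direction; small numbers are the replicate numbers, the wide bar is the mean and the error bar the SD (n = 3 for Cort+/+, n = 2 for Cort-/-), and all axes start at 0. Nr2f2 is at 2.79 and 2.51 RPKM in the Cort-/- NX/NG libraries, below all others, and Stab1 is at 28.5 RPKM or more in the Cort-/- libraries and at 26.7 RPKM or less in the Cort+/+ ones.

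Counted over the 37 of these genes that reached 1 RPKM in 2 or more NX/NG libraries, 17 did not overlap between the genotypes and were higher in Cort-/-, where 16.2% of the 14220 genes passing the same filter did so. Another 3 did not overlap and were lower (Nr2f2, Foxc1 and Foxc2), where 16.5% of the 14220 did so. The number at an unadjusted p under 0.05 depended on the libraries. It was 3 without Cort+/+ replicate 1 and 23 without Cort+/+ replicate 3. Leaving out Cort-/- replicate 1 or 2, with the lone Cort-/- library assumed to vary like the Cort+/+ ones, gave 4 and 2 of the 42, and 543 and 683 genes called in the whole table. No member passed the adjusted threshold in any of these fits. The fold changes of the 11 named genes kept their direction, which was fixed in advance, since their groups did not overlap. The matching counts over all genes at an unadjusted p under 0.05 were not taken for these fits.

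Within a group, the endothelial genes did not vary independently of each other. Of the 37 genes that reached 1 RPKM in every library, 23 were highest in replicate 3 of the Cort+/+ NX/NG group and 23 lowest in replicate 1. In the Cort+/+ OGD-R group 19 were highest in replicate 3, and in the Cort-/- OGD-R group 24 were highest in replicate 1. Erg, Fli1, Ets1 and Ets2 were highest in these same replicates in all 3 groups. So were Sox7, Sox17, Foxo1, Bcl6b, Cd34, Cd93, Podxl, Ly6c1, Adgrl4, Adgrf5, Cyyr1 and She. Foxc2 was highest in replicate 1 of both Cort+/+ groups and in replicate 3 of the Cort-/- OGD-R group.

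The libraries with high ETS levels had the lowest fibroblast sums of their groups. The fibroblast markers summed to 302, 299 and 218 RPKM in the Cort+/+ NX/NG replicates, to 369, 348 and 274 RPKM in the Cort+/+ OGD-R ones, and to 226 and 283 RPKM in Cort-/- OGD-R replicates 1 and 3. Tip cell markers (Apln, Angpt2, Pdgfb, Cxcr4 and Unc5b) summed to 742, 623 and 1152 RPKM, to 725, 920 and 1241 RPKM, and to 1452 and 891 RPKM in the same libraries. Thus Cort+/+ replicate 3 of each environment and Cort-/- OGD-R replicate 1 were the lowest of their groups in the first sum and the highest in the second. Most of the first sum was Col1a1, Col1a2 and Col3a1, most of the second was Apln and Angpt2, and not every listed gene followed. Thy1 was highest in replicate 3 of both Cort+/+ groups, at 12.7 and 26.5 RPKM. Unc5b was highest in none of these libraries. The part of cell composition in the order of the libraries was not tested.

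**Figure D4:**
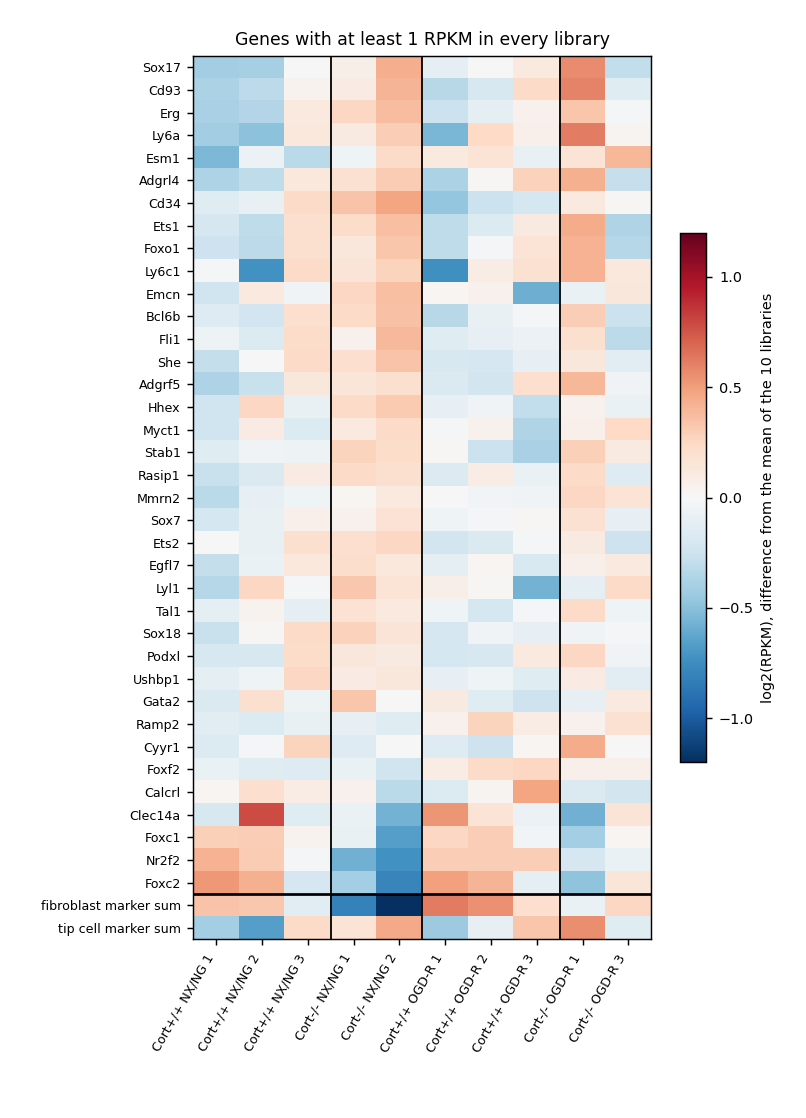
Log2 difference of each gene from its mean over the 10 libraries (columns, with the replicate number) for the 37 genes with at least 1 RPKM in every library, and below the thick line the summed fibroblast and tip cell markers; red is higher and blue lower, rows are ordered by the difference of Cort-/- NX/NG replicate 2 from the Cort+/+ NX/NG mean. In both Cort-/- NX/NG libraries Nr2f2, Foxc1, Foxc2 and the fibroblast sum are blue, and Erg, Cd93 and Cd34 are red.

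After OGD-R the median difference between the genotypes was smaller than under NX/NG. The ranges of this median over refits leaving out 1 library overlapped, at 0.15 to 0.28 under NX/NG and 0.03 to 0.20 after OGD-R. The interaction, given below, was called for 0 of the 42. The median log2 fold change of the 42 genes was 0.13 and that of all genes -0.01. It was above 0 for 32 of the 42, Mmrn1 at the floor included, and for 30 of the 38 that reached 1 RPKM in 2 or more libraries. In limma 0 of the 42 and 0 of 29775 genes (0%) passed the adjusted threshold, and limma-voom called 5 genes in all and 0 of the 42. At an unadjusted p under 0.05, 2 of the 42 were higher (Cd34 and Stab1), against 1.72% of all genes, and 1 was lower (Nr2f2), against 1.71%. With limma-voom 3 of the 42 were higher and 1 lower at that threshold, beside 550 and 654 of all 29775 genes.

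Nr2f2 had 5.09, 5.08 and 5.08 RPKM in the Cort+/+ OGD-R replicates and 3.62 and 3.93 RPKM in Cort-/- replicates 1 and 3. The Cort+/+ libraries were nearly equal and both Cort-/- libraries lay below them, a log2 fold change of -0.42 (SE 0.10, limma adjusted p = 0.801). Cd34 was at 34.6, 39.9 and 41.4 RPKM and at 51.7 and 48.2 RPKM, with a log2 fold change of 0.37 (SE 0.11, adjusted p = 0.978). Stab1 lay at 26.7, 22.1 and 20.1 RPKM and at 32.2 and 28.5 RPKM, a log2 fold change of 0.41 (SE 0.14, adjusted p = 0.978). All 3 genes were apart between the genotypes in this environment too. These libraries are not the NX/NG ones, but whether the environments shared pools of mice is not known.

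The spread between the Cort-/- OGD-R libraries was wide for many of the others. Erg was at 107 and 83.8 RPKM in Cort-/- and at 70.8, 78.5 and 87.3 RPKM in Cort+/+ libraries, Sox17 at 26.2 and 14.4 RPKM against 16.4, 17.7 and 19.1 RPKM, and Cd93 at 414 and 248 RPKM against 218, 240 and 321 RPKM. In each of the 3, Cort-/- replicate 1 was the highest library, while replicate 3 lay within the Cort+/+ range for Erg and Cd93 and below it for Sox17. Foxc2 had 4.35 and 6.75 RPKM against 8.58, 8.10 and 5.65 RPKM, with replicate 1 the lowest. Fibroblast markers summed to 226 to 283 RPKM in Cort-/- and 274 to 369 RPKM in Cort+/+ OGD-R libraries, with 4 of 10 lower at an unadjusted p under 0.05. Lum, 1 of these 4, was near 0 in every library. The mural markers summed to 1010 to 1500 RPKM and 1349 to 1714 RPKM, with Vtn lower at that threshold.

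Of the 38 genes that reached 1 RPKM in 2 or more OGD-R libraries, 6 did not overlap and were higher in Cort-/- (Cd34, Stab1, Mmrn2, Myct1, Esm1 and Egfl7), where 7.94% of 14325 genes did so. Nr2f2, Foxf2 and Calcrl did not overlap and were lower, where 8.22% did so. Both libraries low in ribosomal RNA are in this environment, 1 in each genotype. With a term for them 6 of the 42 passed an unadjusted p of 0.05, and the matching count over all genes was not taken. Without Cort+/+ replicate 1, 3 passed, with log2 fold changes of -0.42 for Nr2f2, 0.30 for Cd34 and 0.52 for Stab1. Without Cort-/- replicate 3, 8 of the 42 passed and 626 genes were called in the whole table, and without Cort-/- replicate 1, 710 genes were called, each time with a lone Cort-/- library assumed to vary like the Cort+/+ ones and with 0 of the 42 called.

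For the change between environments, the reads of both tables were scaled together, and the RPKM values below are on that joint scale. In Cort+/+ BECs 0 of the 42 genes and 9 of 27075 genes (0.0332%) passed the adjusted threshold in limma, and limma-voom called 0 of the 42 and 1 gene in all. At an unadjusted p under 0.05, 2 of the 42 were higher after OGD-R (Foxf2 and Ramp2), against 3.01% of all genes, and 2 were lower (Cd34 and Ets2), against 2.48%. The median log2 fold change of the 42 was -0.08, and that of all genes -0.01.

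In Cort+/+ BECs Foxf2 was at 9.40, 8.99 and 8.96 RPKM under NX/NG and at 10.1, 11.1 and 11.3 RPKM after OGD-R, without overlap (log2 fold change 0.25, SE 0.07, adjusted p = 0.881). Ramp2 lay at 12.9, 12.7 and 13.4 RPKM and at 14.1, 16.3 and 14.4 RPKM (log2 fold change 0.19, SE 0.07, adjusted p = 0.881). Cd34 was lower in every OGD-R library, at 33.7, 38.9 and 40.3 RPKM against 44.1, 46.0 and 57.6 RPKM (log2 fold change -0.38, SE 0.12, adjusted p = 0.881). Ets2 had 6.81, 7.04 and 7.86 RPKM after OGD-R and 8.37, 7.88 and 9.57 RPKM under NX/NG, so that the environments adjoin without overlap (log2 fold change -0.24, SE 0.10, adjusted p = 0.881). Of the mural and fibroblast markers, the mural genes Cnn1 (log2 fold change -0.80, SE 0.21) and Myh11 (-1.05, SE 0.28) were lower after OGD-R at an unadjusted p under 0.05. The fibroblast gene Lum (0.60, SE 0.22) was higher at that threshold. Lum was near 0, averaging 0.0333 RPKM under NX/NG and 0.108 RPKM after OGD-R as deposited. Col1a1, Col1a2 and Col3a1 did not pass that threshold. The part of these genes was not tested. Without Cort+/+ OGD-R replicate 2, 2 of the 42 passed the unadjusted threshold in place of 4.

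In Cort-/- BECs 0 of the 42 and 0 of 26523 genes (0%) passed the adjusted threshold in limma, and limma-voom called none. At an unadjusted p under 0.05, Nr2f2 was higher after OGD-R, against 2.21% of all genes, and Cd34, Sox18 and Hhex were lower, against 1.87%. With limma-voom 1 of the 42 was higher and 6 were lower at that threshold, beside 505 and 546 of all 26523 genes. The median log2 fold change was -0.14 over the 42 genes and -0.00357 over all genes.

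Nr2f2 lay at 2.87 and 2.58 RPKM under NX/NG and at 3.53 and 3.82 RPKM after OGD-R in Cort-/- BECs (log2 fold change 0.42, SE 0.14, adjusted p = 0.922), and the values did not overlap. Cd34 went from 62.1 and 68.4 RPKM to 50.4 and 47.0 RPKM (log2 fold change -0.42, SE 0.10, adjusted p = 0.922), the same direction as in Cort+/+ BECs. Sox18 was at 77.2 and 71.1 RPKM and at 58.5 and 59.5 RPKM (log2 fold change -0.33, SE 0.09), and Hhex at 4.66 and 4.95 RPKM and at 3.89 and 3.55 RPKM (log2 fold change -0.36, SE 0.12). Of the fibroblast markers, Col1a1, Col1a2, Col3a1 and Thy1 were higher after OGD-R at an unadjusted p under 0.05. Of the 10 mural markers, Cspg4 (log2 fold change 1.93, SE 0.37) and Pdgfrb (0.70, SE 0.23) were higher and Myh11 (-1.26, SE 0.30) was lower at that threshold. The part of these markers was not tested. Leaving out a library left 1 Cort-/- library in a group. The count of 4 of the 42 was not stable in these refits, and the matching counts over all genes were not taken.

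**Figure D5:**
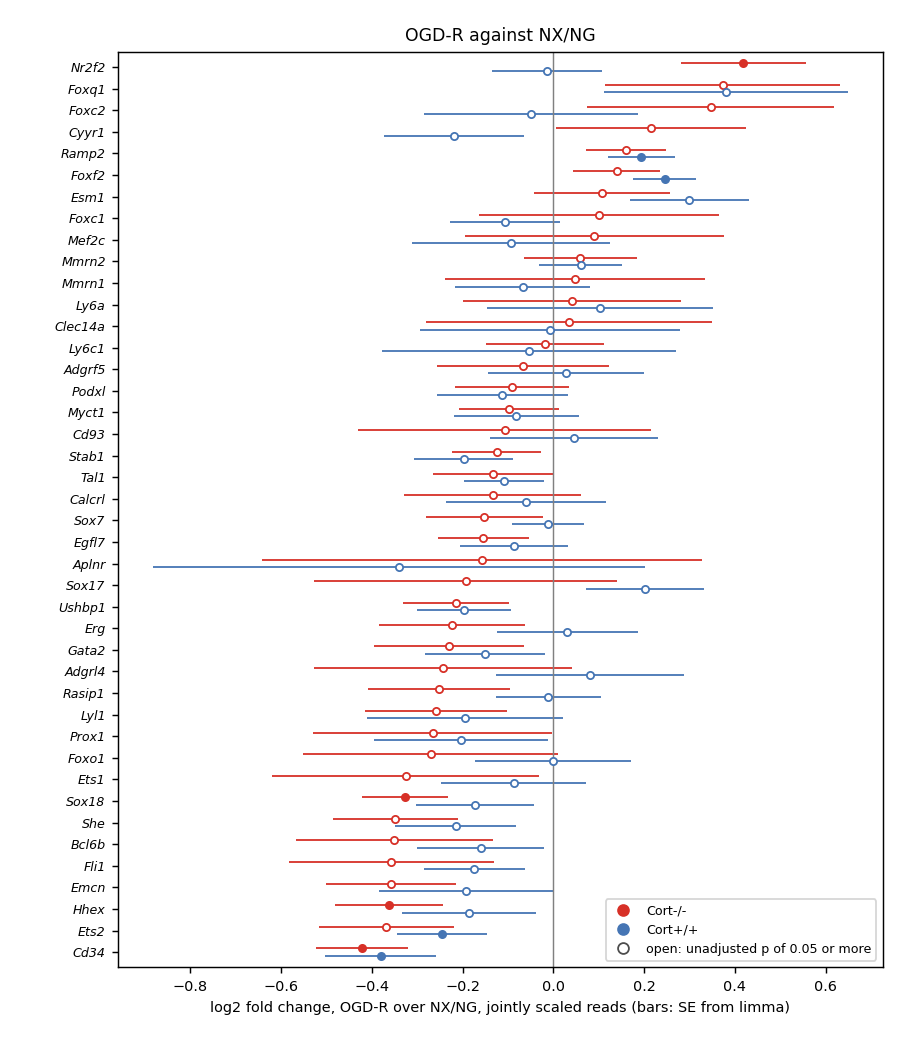
Log2 fold change of OGD-R over NX/NG for each of the 42 genes, from reads scaled together over the 10 libraries, in Cort-/- (red, 2 against 2 libraries) and Cort+/+ BECs (blue, 3 against 3 libraries); bars are the standard error from limma and filled points have an unadjusted p under 0.05. Cd34 is filled and below 0 in both genotypes, at -0.42 and -0.38, and Nr2f2 is filled in Cort-/- BECs, at 0.42. The points of Mmrn1 rest on at most 3 reads a library.

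The difference of the response between the genotypes was tested as an interaction over the 4 groups. For 0 of the 42 genes and 3 of 27321 genes (0.011%) it passed the adjusted threshold in limma, and limma-voom called 0. Nr2f2 was the 1 gene of the 42 that passed at an unadjusted p under 0.05 with a more positive response in Cort-/-, against 1.69% of all genes, and 0 of the 42 did so with a more negative one, against 1.17%. Its response was 0.42 in Cort-/- and -0.01 in Cort+/+ BECs, a difference of 0.43 (SE 0.18, adjusted p = 1.00). The count was 0 when any of Cort+/+ NX/NG replicates 1 and 2, Cort-/- NX/NG replicate 2 or the Cort+/+ OGD-R replicates was left out. For Cd34, lower after OGD-R in both genotypes, the difference of the responses was -0.04 (SE 0.18).

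Other endothelial regulators outside the 42 were listed for comparison. Of 30 other transcription factors and cofactors, Etv6 and Elf4, both of the ETS family, were higher in Cort-/- NX/NG BECs at an unadjusted p under 0.05 and Klf4, Foxo3 and Rbpj were lower, with a median log2 fold change of 0.03. Klf4, a factor of quiescent endothelium that mural cells also make, averaged 13.8 ± 2.57 RPKM (SD, n = 3) in Cort+/+ and 7.06 ± 1.81 RPKM (SD, n = 2) in Cort-/- BECs, a log2 fold change of -0.96 (SE 0.23, adjusted p = 0.374). After OGD-R the 1 that passed was the Notch target Hey1, lower in Cort-/-, and the median was 0.04.

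Of 20 other endothelial defining genes, S1pr1 and Nos3 were higher in Cort-/- NX/NG BECs at that threshold and 0 lower, with a median log2 fold change of 0.22, close to the 0.23 of the 42. After OGD-R the nitric oxide synthase gene Nos3 was higher (log2 fold change 0.44, SE 0.08, adjusted p = 0.51) and the median was 0.16. Of the lymphatic markers listed, Pdpn was lower in Cort-/- than in Cort+/+ libraries in both environments, at 3.59 against 19.9 RPKM under NX/NG. Its limma adjusted p was 0.108 under NX/NG and 0.148 under OGD-R. Flt4 and Lyve1 were higher under NX/NG at an unadjusted p under 0.05. Arterial markers summed to 104 to 133 RPKM and venous markers to 25.9 to 34.8 RPKM over the 10 libraries, and 0 of either list passed the threshold between the genotypes. Epithelial markers summed to 9.15 to 59.5 RPKM, highest in Cort+/+ NX/NG replicate 2 and next in Cort-/- OGD-R replicate 1 (42.6 RPKM). Krt18 was higher in Cort-/- than in Cort+/+ OGD-R libraries at that threshold, at 20.9 and 8.67 RPKM against 7.04, 3.13 and 1.28 RPKM. Its highest value was 26.0 RPKM, in Cort+/+ NX/NG replicate 2. None of the macrophage or neural markers tested passed that threshold between the genotypes, and of the tip cell markers Pdgfb did so, higher in Cort-/- under NX/NG.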

How the data were processed

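RNA of primary mouse BECs was measured in the 12 samples listed, of which 10 were analysed; the third Cort-/- sample under NX/NG and the second after OGD-R were not analysed here. The RPKM values were computed by the authors and deposited in 2 tables, 1 per environment, each table scaled separately from the other. The submitters' processing notes name edgeR; aligner, counter and genome build are not given in the sources used here. The tables also hold the authors' own fold changes, p-values and FDR between genotypes, which were not used. RPKM times gene length gave whole reads within 0.05 for at least 99.9958% of values, so reads were recovered, between 12386048 and 12390428 a library; at this depth 3 reads or fewer were taken as the floor.

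Groups followed the labels. The 5 comparisons were tested with limma 3.58.1 in R 4.3.3 (two-sided, empirical Bayes with a trend, after a check on simulated data) on log2(RPKM + 0.1) of all genes above 0, and p-values were adjusted by Benjamini-Hochberg, with a call at 0.05. Fold changes on this scale understate those of low genes. For comparisons between environments, the tables were joined over their 27321 shared genes and the reads rescaled by trimmed means of M values (Python 3.11.15). No gene set was tested: counts and medians stand beside those of all genes. The members and lists were chosen with earlier results of these data known. Fold changes are given for members at an unadjusted p under 0.05, values per library for the members of lowest p and of highest level in each role, and the rest as ranges and counts, with a few added for context. Samples were not paired by replicate number in the main fits. Deviations of same-numbered Cort+/+ libraries from their group means correlated at -0.03, -0.06 and 0.11 over 14855 genes. With 3 libraries a group, these values cannot settle whether same-numbered libraries shared a pool of mice. Alternatives were a pseudocount of 1, a filter at 1 RPKM in 2 libraries, quantile normalization, the replicate block, 1 fit of all 4 groups, limma-voom on the reads, a term for low ribosomal RNA and leaving out each replicate.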

Additional observations from a re-analysis of the deposited data

How the results depend on the processing

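Every named gene kept its direction in all 265 refits of its fold change. These genes were chosen by the main fits. In the comparisons of 2 groups their libraries did not overlap, so leaving out 1 library could not reverse them. Of the 42 genes, 0 were called in any alternative other than limma-voom under NX/NG, which called 2. The counts varied between the fits. Matching counts over all genes at an unadjusted p under 0.05 were taken only for limma-voom. Between genotypes under NX/NG, where 11 of the 42 passed at an unadjusted p under 0.05 and 0 genes of the table were called, limma-voom gave 23 and 124, the replicate block 21, a pseudocount of 1 called 20 genes and the fit of all 4 groups 4; leaving out a replicate gave 2 to 23 of the 42 and 0 to 683 genes. Under OGD-R (3 of the 42 and 0 genes), the replicate block gave 0 of the 42, the term for low ribosomal RNA 6, limma-voom called 5 genes and the fit of all 4 groups 7, and leaving out a replicate gave 2 to 8 of the 42 and 0 to 710 genes. From NX/NG to OGD-R in Cort+/+ BECs (4 of the 42 and 9 genes), a pseudocount of 1 called 5 genes, limma-voom 1, and the filter, the replicate block, the fit of all groups, the ribosomal RNA term and each left-out replicate 0, with 2 to 5 of the 42 left. In Cort-/- BECs (4 of the 42), limma-voom gave 7, the ribosomal RNA term 2 and left-out replicates 0 to 14; the replicate block could not be fitted, since the groups share 1 number. For the interaction (1 of the 42 and 3 genes), a pseudocount of 1, the replicate block and the ribosomal RNA term gave 0 and 0, the filter and limma-voom called 0 genes, and left-out replicates gave 0 to 1 and 0 to 8. The replicate block made no call among the 42. The cause of these shifts was not tested. With 2 Cort-/- libraries a group, and 1 when a replicate is left out, the spread is estimated from few samples, and the equal read totals do not lessen that.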
